A study of Mus musculus with 2 samples.

Results

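The MHC class II-high C1q macrophages of the KPPC pancreatic tumour are the cells in which transcripts of the class II antigen-presenting machinery and of complement C1q occur together. A cell was a member if the class II transcripts H2-Aa, H2-Ab1, H2-Eb1 and Cd74 made up at least 1.5% of its unique molecular identifiers (UMIs, each standing for one captured transcript) and if it held at least 3 UMIs of C1qa, C1qb and C1qc together. It could hold at most 1 UMI of Ear2 and Car4, under 1% Saa3 and no UMI of Cd79a, Cd3e or Epcam. By this rule 1153 of 36662 cells were members, 945 of 9872 in vehicle and 208 of 26790 in takinib. Members were thus chosen by the measured UMIs of these genes, whose levels are given as descriptions.

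The tumours came from KPPC mice, engineered to develop pancreatic ductal cancer, at an age of 6 weeks. The control group was given vehicle and the other 50 mg/kg takinib, each over 14 days. Takinib inhibits TAK1, a kinase encoded by Map3k7 that relays cytokine and pattern-receptor signals to NF-kB and AP-1. Tumours were digested to single cells, and each group is 1 library. The number of mice behind each library is not stated, the alleles of the mice are not spelled out, and the labels carry pancreas as cell line and tumor as cell type. With 1 library a group no test was possible and no difference has a replicate check. Intervals in square brackets are 95% intervals, exact Poisson for levels, Clopper-Pearson for shares and a combination of both Poisson intervals for log2 ratios, and they cover counting error only.

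MHC class II molecules are pairs of an alpha and a beta chain that show peptides to CD4 T cells. The invariant chain Cd74 guides them to endosomes, proteases such as cathepsin S trim it, and H2-DM exchanges its last fragment for peptide. The transactivator Ciita, recruited to class II promoters by factors bound at short boxes, switches the whole set on, and C1q, made by macrophages themselves, opens the classical complement pathway.

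The vehicle matrix held 704261 barcodes, of which 470280 had a UMI, and 80850334 UMIs. The takinib matrix held 34158 barcodes, none below 500 UMIs, and 139292875 UMIs. Kept cells had a median of 3594.5 UMIs and 8.68% mitochondrial UMIs in vehicle and 3049.5 UMIs and 1.84% in takinib. Cells with Y-linked transcripts occurred in vehicle, where 277 members carried Y-linked and no Xist transcripts and 55 Xist and no Y-linked transcripts, while 164 takinib members carried Xist. Treatment cannot be told apart from library, sex of the source cells, mitochondrial share, or the Cell Ranger version, which differed between the files. The libraries shared 400 kept barcodes, 1 of them among members.

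The class II genes share a promoter architecture in which an X box, followed a few turns of the helix later by a Y box, recruits the factors that Ciita binds. The windows of the alpha chain gene H2-Aa (chr17:34287824-34288073, minus strand) and the beta chain gene H2-Eb1 (chr17:34305617-34305866, plus strand) are printed because both end at the gene start and hold the box pair in the transcripts by which members were chosen. Capitals mark every match to GNAACT, the core of the X box, and to TGATTGG, the Y box, on either strand.
H2-Aa: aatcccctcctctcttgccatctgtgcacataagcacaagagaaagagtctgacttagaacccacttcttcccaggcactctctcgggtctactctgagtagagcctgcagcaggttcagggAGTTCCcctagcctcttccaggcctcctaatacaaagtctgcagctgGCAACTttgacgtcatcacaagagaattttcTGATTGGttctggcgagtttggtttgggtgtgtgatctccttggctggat
H2-Eb1: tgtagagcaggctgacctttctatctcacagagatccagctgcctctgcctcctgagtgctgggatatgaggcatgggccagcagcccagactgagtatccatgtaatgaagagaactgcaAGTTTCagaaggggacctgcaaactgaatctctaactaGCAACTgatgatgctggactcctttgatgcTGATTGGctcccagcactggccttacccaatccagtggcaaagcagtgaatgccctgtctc
In H2-Aa the starts of GCAACT and TGATTGG lie 31 bases apart, and in H2-Eb1 30 bases. The same pair, at 28 to 34 bases, occurs in 32 of 32536 RefSeq promoter windows of 250 bases (0.0984%), while GNAACT alone occurs in 37.2% and TGATTGG alone in 7.21%. Of 22 class II-related genes looked up, 18 had a window, and 4 held the pair, the other two being H2-Eb2 and H2-DMb1. A match is a description of the letters, not a measured binding site.

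The label was read against its 5 markers, of which H2-Ab1, Cd74 and C1qa were used by the rule, so that their levels cannot check it. In vehicle members these stood at 5993, 17975 and 3017 CPM, a gene's UMIs per 1000000 UMIs summed over the population, and in takinib members at 4251, 14849 and 2968 CPM. The other two markers, outside the rule, did not go together. Apoe, which carries lipid, was at 19504 CPM in vehicle and 16536 CPM in takinib. Dcstamp, a membrane protein needed for fusion of macrophages and osteoclasts, was at 346 CPM in vehicle but 57.1 CPM in takinib, where 25 of 208 members held a UMI. In the takinib library Dcstamp was therefore no general marker of the members. Csf1r, the receptor for the macrophage growth factor CSF1, was at 700 and 644 CPM in members. In class II cells without a C1q UMI, 66 cells in vehicle and 73 in takinib, Csf1r was at 166 and 139 CPM.

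Markers of dendritic cells, the other class II-rich cells of a tumour, were low in members. Over 10 genes they summed to 68.2 CPM in members of the vehicle and 89.0 CPM in members of the takinib library, against 831 and 1069 CPM in the class II cells without C1q. Flt3, the receptor that drives dendritic cell development, had 5 and 7 UMIs in vehicle and takinib members. Zbtb46, a transcription factor of conventional dendritic cells, had 7 and 0, and Siglech, a plasmacytoid marker, had none in either. Of the alveolar macrophage genes, Ear1 and Krt79 had no UMI in members, while Ear2 and Car4 were limited by the rule.

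Members made up 9.57% [8.999, 10.17] of vehicle and 0.776% [0.675, 0.889] of takinib cells. Taken over C1q cells alone, members were 42.7% [40.6, 44.8] in vehicle and 11.3% [9.89, 12.8] in takinib, the remaining 1268 and 1632 cells being class II-low C1q cells, which met every other condition. Vehicle cells of female origin, the ones matching the takinib library in that respect, gave 38.2% [30.2, 46.7] of C1q cells, 55 of 144. Takinib cells with Xist and no Y-linked UMI gave 11.5%, 164 of 1424. The share of C1q cells was thus lower in takinib with vehicle cells of either origin, since male vehicle cells gave 42.3%. Among cells with S100a8 and S100a9 together at most 0.2% of UMIs, members were 938 of 9512 in vehicle and 141 of 6652 in takinib. This limit leaves out neutrophils, but also C1q cells that hold these transcripts, and more of them in takinib. Members fell from 945 to 938 in vehicle and from 208 to 141 in takinib. Class II-low C1q cells fell from 1268 to 1226 and from 1632 to 961. The log2 ratio of the member share of kept cells, takinib to vehicle, was then -2.22 instead of -3.62, and that of the share of C1q cells -1.76 instead of -1.92. Shallow barcodes had been removed from the takinib matrix at deposit but not from the vehicle matrix, and equal limits were applied to both.

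**Figure D1:**
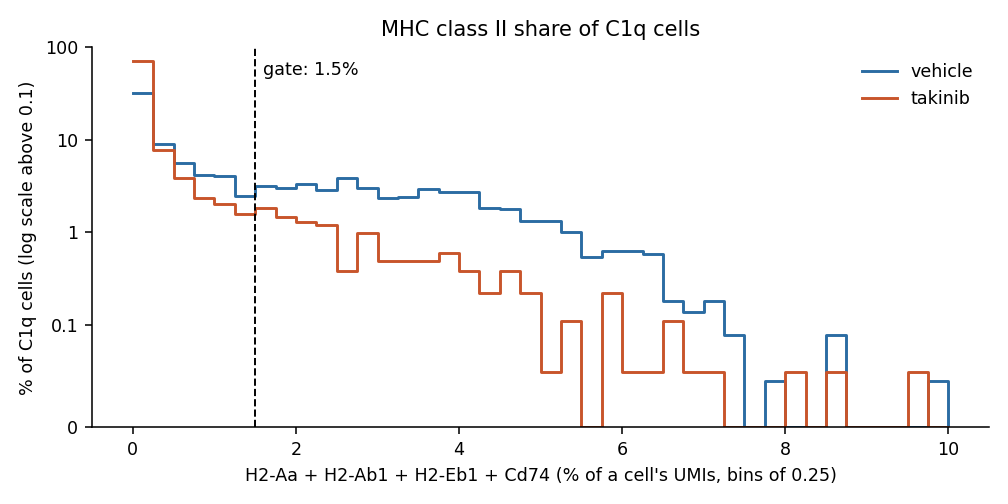
Distribution of the class II share of UMIs (x axis, percent) over C1q cells of each library (y axis, percent of C1q cells, log scale above 0.1 and linear below), with the limit of 1.5% drawn as a line. Of the C1q cells, 42.7% lie above the limit in vehicle and 11.3% in takinib.

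The class II share ran without a gap through the limit. Within 0.25 percentage points above the limit there were 70 vehicle and 34 takinib members, and within 0.25 below it, just outside, 55 and 29 cells. Just inside and just outside, vehicle cells held Dcstamp at 264 and 265 CPM and Apoe at 16484 and 16592 CPM. In takinib Dcstamp stood at 17.3 CPM inside and 76.9 CPM outside, from 4 and 11 UMIs. Of the cells meeting both the class II and the C1q condition, 2179 in vehicle and 408 in takinib, the limit on Ear2 and Car4 removed 49.5% and 28.9%, and 209 and 20 cells would have been members but for a second UMI of these genes. Members with exactly 3 C1q UMIs numbered 10 and 6, and cells that missed by 1 C1q UMI 18 and 13.

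Vehicle members had a median of 3669 UMIs, 29 C1q UMIs and a class II share of 3.24%, and takinib members 5169.5 UMIs, 38.5 C1q UMIs and 2.45%. Background from free RNA was read in epithelial cells. Of cells with at least 2 Epcam UMIs, 14.8% in vehicle and 12.6% in takinib also held 3 or more C1q UMIs at median depths of 5638 and 10554 UMIs. A class II share of 1.5% was reached by 4.97% and 0.563% of these epithelial cells. Scrublet marked 19 of the vehicle members (2.01%) and 11 of the takinib members (5.29%) as doublets, and they were kept.

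**Figure D2:**
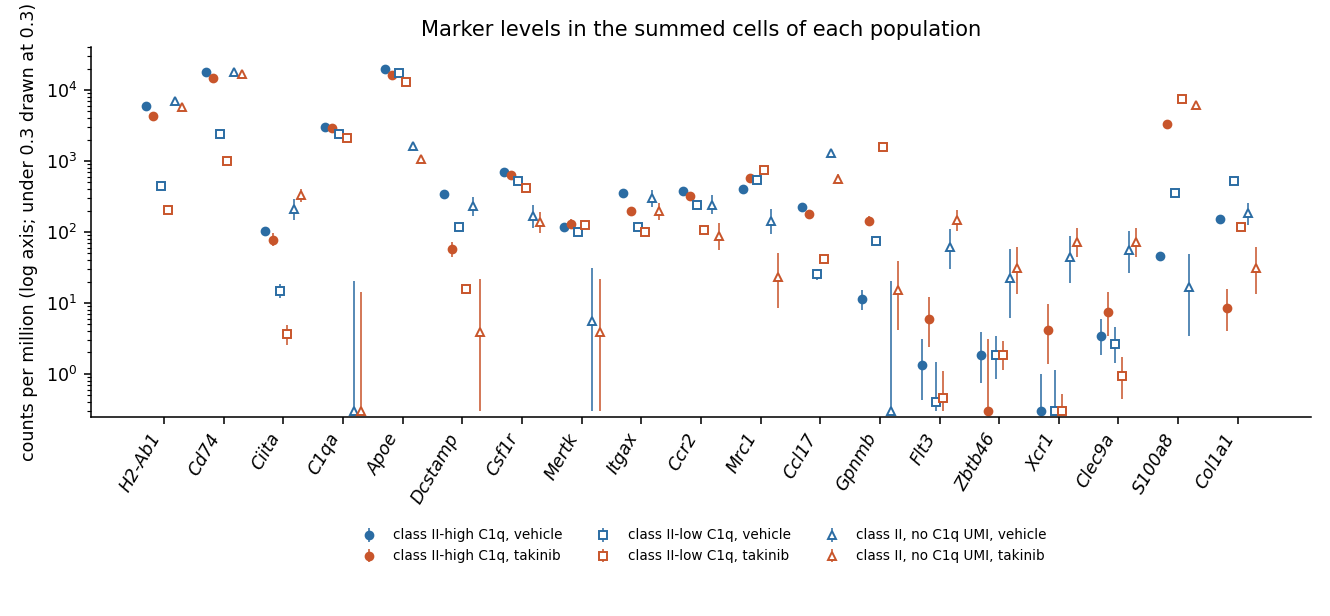
Levels (CPM, log axis, values under 0.3 drawn at 0.3) of marker genes in members, class II-low C1q cells and class II cells without C1q, in vehicle and takinib, with exact Poisson intervals. H2-Ab1 stands at 5993 and 4251 CPM in members against 449 and 207 CPM in class II-low cells, while C1qa and Apoe are close in members and class II-low cells.

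Beyond the class II genes that defined them, members differed from class II-low C1q cells in few transcripts. Of 9885 genes with at least 50 UMIs in a population, 25 were at least 1 higher on the log2 scale in both libraries (0.253%) and 42 at least 1 lower in both (0.425%), with 10 CPM added to both levels of each ratio. The cells were divided by class II share, so these are descriptions. Ciita was at 104 CPM in vehicle members and 14.8 CPM in class II-low cells, a log2 ratio of 2.21. In takinib Ciita was at 78.1 and 3.61 CPM, a ratio of 2.69. Members were above class II-low cells in both libraries. Class II cells without a C1q UMI held Ciita higher still, at 210 CPM in vehicle and 328 CPM in takinib, so it was not particular to members. The H2-DM genes were also higher in members than in class II-low cells. H2-DMb1 had ratios of 2.21 and 2.47 in vehicle and takinib and H2-DMa 1.57 and 1.88.

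Other genes higher in members than in class II-low C1q cells encode secreted and surface proteins. These ratios do not compare members with class II cells without C1q. Ccl17, a chemokine that attracts CCR4-bearing T cells, was at 225 CPM in vehicle members and 25.5 CPM in class II-low cells, and at 177 and 42.2 CPM in takinib. It came from few cells, since 13.3% of vehicle and 12.98% of takinib members held a UMI and 10 cells gave 43.3% and 80.6% of the UMIs. Adamdec1, a secreted metalloprotease-like protein, had ratios of 2.34 and 2.01, and Mgl2, a galactose-binding lectin, 1.62 and 2.26. Dcstamp had ratios of 1.48 and 1.38, from 117 and 15.7 CPM in the class II-low cells. Plet1 (2.21 and 1.27), Klrb1b (1.37 and 1.42), Spint1 (1.23 and 1.36) and Cd72 (1.20 and 1.29), the last a B cell and macrophage co-receptor, were also higher. Mmp13, a collagenase, had 1.55 and 2.12, but 1 takinib cell gave 78.4% of its UMIs.

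Gpnmb, a glycoprotein of lipid-laden macrophages, was lower in members, at 11.2 against 74.6 CPM in vehicle and 144 against 1559 CPM in takinib. Pf4, a platelet-type chemokine also made by resident macrophages, had ratios of -1.97 and -1.78, and Timp1, an inhibitor of matrix proteases, -1.93 and -2.73. The other nine genes at the bottom were the matrix and stromal genes Dcn, Col3a1, Col1a2, Col1a1, Sparc, Fbln2, Igfbp7 and Cald1 and the neutrophil granule gene Camp. Fibroblast transcripts also lay free in the vehicle library, with Col1a1 at 154 CPM in vehicle members and 576 CPM in empty barcodes. Their part in these differences was not tested.

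**Figure D3:**
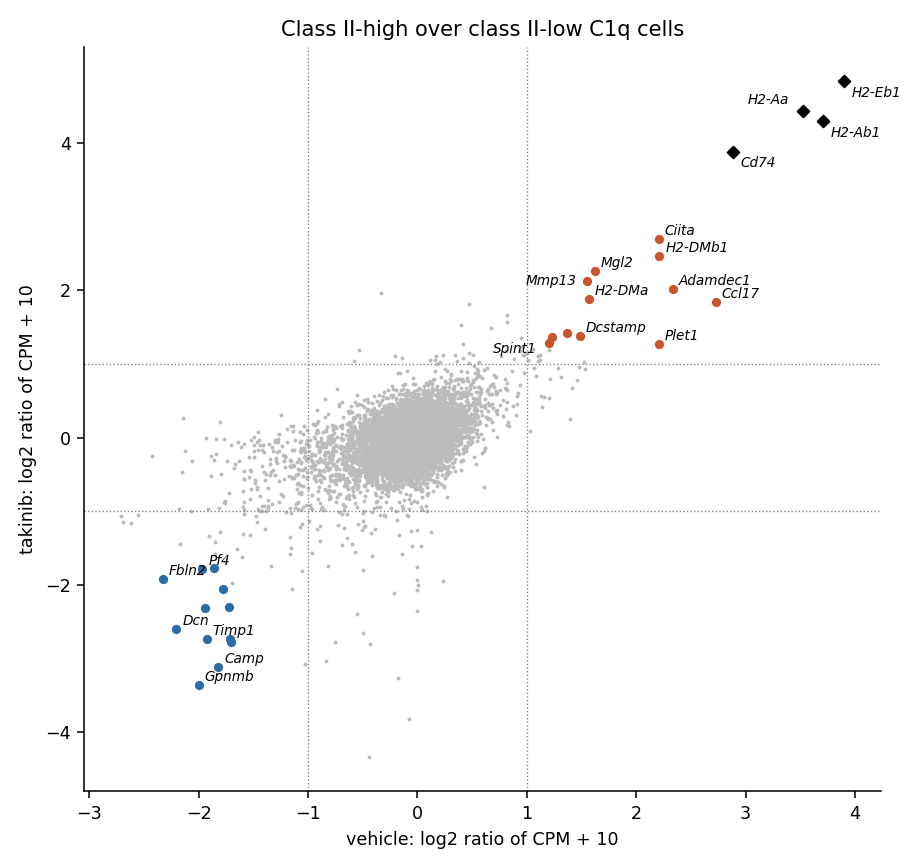
Log2 ratio of members over class II-low C1q cells in vehicle (x axis) and takinib (y axis), 1 point per gene. Diamonds mark the class II genes of the rule, and coloured points the genes named by rule, with Ciita at 2.21 and 2.69 and Timp1 at -1.93 and -2.73.

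Takinib and vehicle members were then set side by side. Of 6779 genes with at least 50 UMIs in a library, 152 were at least 1 higher in takinib on the log2 scale (2.24%) and 99 at least 1 lower (1.46%), and the median over all genes with 10 UMIs was 0.02. In the class II-low C1q cells of the same libraries, 194 of 9875 genes were at least 1 higher in takinib (1.96%) and 307 at least 1 lower (3.11%), so differences of this size were not limited to members. Levels in other RNA sources were set beside both counts. For 102 of the 152 higher genes the level in takinib neutrophils was above that in takinib members. For 65 of the 99 lower genes the level in vehicle empty barcodes was above that in vehicle members, and 12 were mitochondrial. The matching shares over all 6779 genes were not computed, so these counts cannot show an excess. The 11 neutrophil genes together reached 204 CPM in members from vehicle and 7916 CPM in those from takinib, and the 7 fibroblast genes 445 and 35.3 CPM. Takinib members held S100a8 at 3341 CPM, 5.25% of its level in takinib neutrophils. A neutrophil profile scaled to S100a8 and S100a9 would account for 5.35% of takinib and 0.0666% of vehicle member UMIs.

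Within members no class II chain differed by 1 or more between libraries. The rule set a floor on their summed share and did not require equal levels. H2-Aa was at 5912 CPM in vehicle and 5464 in takinib, a log2 ratio of -0.11 [-0.15, -0.07]. H2-Ab1 had the largest difference of the chains, at -0.49 [-0.54, -0.45], H2-Eb1 was at -0.21 and Cd74 at -0.28. The class II-low cells, held below the limit, had H2-Ab1 at 449 CPM in vehicle and 207 CPM in takinib, and Cd74 at 2427 and 999 CPM. The peptide loader H2-DMa was at 961 CPM in vehicle and 527 CPM in takinib members, -0.85 [-0.97, -0.73], and H2-DMb1 at 432 and 360 CPM. Ciita, which the rule did not use, differed by -0.38 [-0.68, -0.08], and by 0.49 with vehicle cells of female origin, where it was at 52.7 CPM.

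None of the 7 loading and processing genes with 50 UMIs passed 1 in either direction, and the median of the 9 measured was -0.17. Cathepsin S, Ctss, which trims the invariant chain, was at 3790 and 3690 CPM. Legumain, Lgmn, another endosomal protease, was at 617 and 874 CPM (0.49), and the thiol reductase Ifi30 at 1701 and 1255 CPM (-0.44). The RFX, NF-Y and Creb1 genes, whose products bind the class II boxes, lay between -0.41 and 0.40. None of 9 costimulatory genes passed 1: Cd86, a ligand of CD28, was at 70.6 and 106 CPM, and Cd274, which encodes PD-L1, at 77.2 and 143 CPM, with takinib neutrophils at 313 CPM. MHC class I genes had a median of 0.06, with B2m at 1804 and 1808 CPM.

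The C1q chains were level between libraries, C1qa at 3017 and 2968 CPM, C1qb at 3206 and 3296 and C1qc at 2401 and 2172. Of 13 complement genes with 50 UMIs, 2 were higher and 1 lower in takinib, against 2.24% and 1.46% of all genes. C3ar1, the receptor for the C3a fragment, was at 112 and 237 CPM (1.01 [0.80, 1.22]). Itgam, the CD11b chain of complement receptor 3, was at 81.5 and 355 CPM (2.00 [1.80, 2.20]), with takinib neutrophils at 593 CPM, and differed by 0.96 with vehicle cells of female origin. Itgax, the CD11c chain of complement receptor 4, went the other way, at 357 and 197 CPM (-0.83). Serping1, the C1 inhibitor, had 90 UMIs in vehicle and 3 in takinib, a vehicle to takinib ratio of CPM of 9.52 [3.15, 47.0].

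Of 16 macrophage identity genes only Cd14, the lipopolysaccharide co-receptor, passed 1, at 276 and 794 CPM (1.49), and takinib neutrophils held it at 2856 CPM. Csf1r, Mertk, Fcgr1 and Irf8 all lay between -0.12 and 0.12. Lyz2, lysozyme, was at 17590 CPM in vehicle and 10418 in takinib (-0.76). Of 18 lipid-handling genes 3 were higher in takinib, against 2.24% of all genes. These were Gpnmb, Fabp5 and Pltp. Fabp5, a fatty acid carrier, was at 319 and 836 CPM (1.36, or 0.62 with class II of at least 3%). Pltp, which transfers phospholipid, was at 53.0 and 190 CPM (1.66). Trem2, a lipid-sensing receptor, was at 249 and 279 CPM, and the efferocytosis receptor Axl at 453 and 236 CPM (-0.91). None of 12 cathepsin and lysosome genes passed 1, and their median was -0.10.

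Genes of resident and alternatively activated macrophages moved in both directions, 4 of 12 higher and 2 lower, against 2.24% and 1.46% of all genes. F13a1, the coagulation factor XIII A chain, was at 23.4 CPM in vehicle and 238 CPM in takinib (2.89 [2.62, 3.16]), and a UMI was found in 5.93% and 32.7% of members. Selenop, a selenium carrier, was at 268 and 731 CPM (1.42), and Pf4 at 136 and 312 CPM (1.14), or 0.41 with class II of at least 3%. Chil3, a chitinase-like lectin, was at 476 and 2557 CPM (2.40), but vehicle members of female origin held 1905 CPM, which gives 0.42, and those of male origin 295 CPM. Mgl2, at 160 and 64.7 CPM (-1.19), turned to 0.63 with vehicle cells of female origin. Retnla, a resistin-like protein of alternative activation, had 60 and 2 UMIs, a vehicle to takinib ratio of 9.52 [2.52, 80.4]. The mannose receptor Mrc1 was at 401 and 580 CPM.

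**Figure D4:**
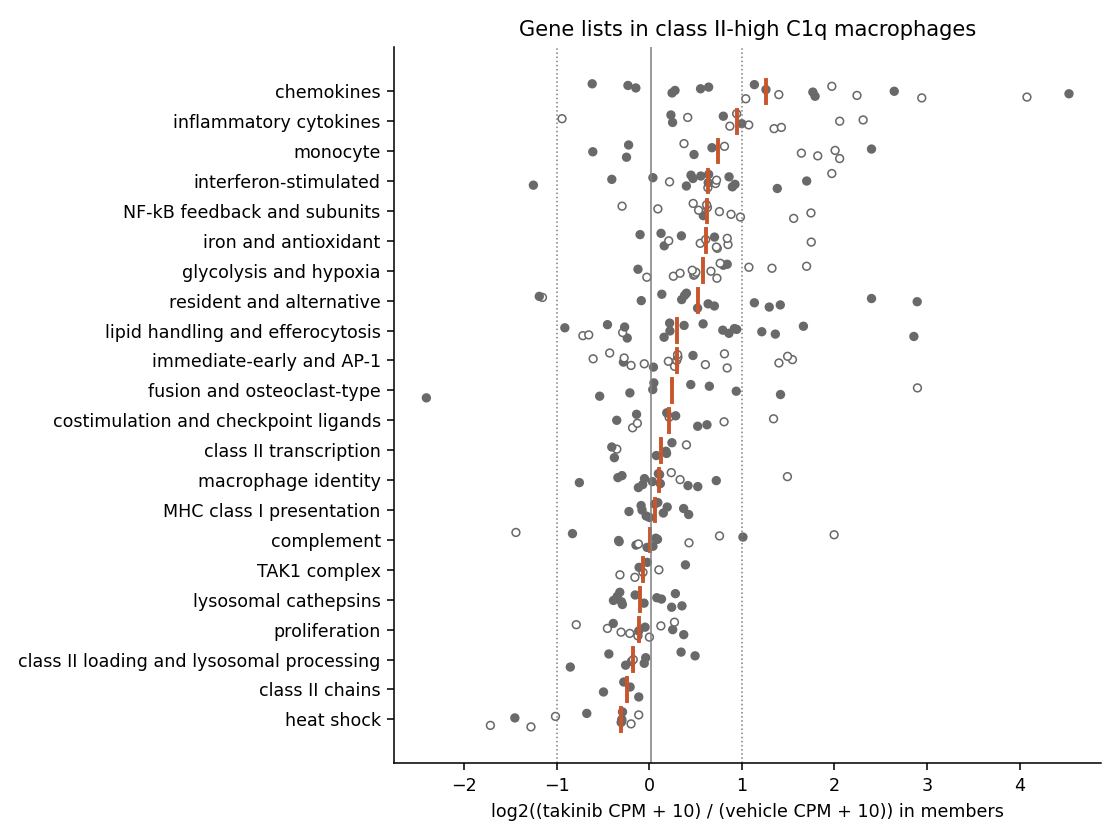
Log2 ratio of takinib over vehicle members (x axis, CPM plus 10) for genes with at least 10 UMIs in each list (rows), with list medians as bars and dotted lines at -1 and 1. Open points are genes whose level in takinib neutrophils is above that in takinib members; they include 11 of 12 NF-kB genes.

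The chemokines were the list with the highest median among those of macrophage function, 1.26, with 11 of 16 genes higher against 2.24% of all genes. Takinib neutrophils held 6 of the 19 chemokines above the takinib members, and the 13 others had a median of 0.64 with 6 higher. Cxcl2, a neutrophil attractant, was at 511 CPM in vehicle and 3996 CPM in takinib members (2.94), and takinib neutrophils held 24687 CPM. Cxcl3, of the same family, was at 47.7 and 965 CPM (4.08), 39.2% of the neutrophil level. Restricted to members with S100a8 and S100a9 at most 0.2% of UMIs, Cxcl2 still differed by 1.61 and Cxcl3 by 3.19, and Ccl4, at 1.40 in all members, by 0.82. With class II of at least 3% the median of the chemokines was 0.23.

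Among chemokines that neutrophils held at lower levels, Ccl5, which attracts T cells and monocytes, was at 14.9 CPM in vehicle and 567 CPM in takinib (4.53 [4.27, 4.79]). Its UMIs came from 32 of 208 takinib members, and 10 cells gave 87.9% of them. The CCR2 ligands Ccl2 (42.9 and 173 CPM), Ccl7 (24.8 and 108 CPM) and Ccl12 (37.3 and 103 CPM) were higher in takinib, while Ccl8, at 11.2 and 123 CPM, owed 64.4% of its takinib UMIs to 1 cell. With class II of at least 3% Ccl7 differed by -0.025 and Ccl8 by -0.35, and Ccl7 by 0.48 with the S100 limit. Cxcl16 (444 and 377 CPM), Ccl6 (2807 and 3330 CPM) and Ccl24 (98.6 and 88.2 CPM) lay between -0.23 and 0.25.

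Map3k7, the gene of the kinase that takinib inhibits, was at 20.8 CPM in vehicle and 17.6 CPM in takinib members (-0.16). The 7 genes of its complex and of the IKK complex had a median of -0.07. With vehicle cells of female origin Map3k7 differed by 0.90 and the median was 0.23, so neither direction was stable. Transcript level does not report kinase activity. The list of NF-kB feedback and subunit genes had a median of 0.62, with 2 of 12 higher, against 2.24% of all genes. Nfkbia, which encodes the inhibitor IkB-alpha, was at 222 and 674 CPM (1.56), and Tnfaip3, which encodes the deubiquitinase A20, at 57.8 and 217 CPM (1.75). Takinib neutrophils held them at 2570 and 490 CPM. With the S100 limit they differed by 1.09 and 1.58, and with vehicle cells of female origin by 0.87 and 0.92.

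Of 10 inflammatory cytokine and mediator genes with 50 UMIs, 5 were higher in takinib, against 2.24% of all genes. Il1b was at 712 and 1827 CPM (1.35), Il1a at 69.0 and 202 (1.43), Tnf at 39.4 and 94.1 (1.07), the cyclooxygenase gene Ptgs2 at 18.6 and 109 (2.06) and the nitric oxide synthase gene Nos2 at 1.33 and 46.2 CPM (2.31). Neutrophils of the takinib library held each of these 5 at a higher level than members. With the S100 limit Il1b differed by 0.59 and Nos2 by 0.88, and with vehicle cells of male origin Tnf by 0.29. Osm, oncostatin M, lay the other way, at 243 and 122 CPM (-0.94). Immediate-early genes had a median of 0.30, with 3 of 18 higher, against 2.24% of all genes. These were Egr1, Ier3 and Klf2, while Jun was at 428 and 372 CPM. Takinib neutrophils held Egr1, Ier3 and Klf2 above the takinib members, at 1046, 2586 and 1199 CPM. With the S100 limit these differed by 0.93, 0.87 and 0.61 between members.

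Monocyte genes had a median of 0.74, with 5 of 10 higher in takinib, against 2.24% of all genes. Chil3, Ly6c2, Ly6i and Plac8 were among the 5. Neutrophils of the takinib library were above members in 4 of the 5, including Ly6c2, Ly6i and Plac8. Ccr2, the receptor by which monocytes leave the marrow, was at 382 and 321 CPM (-0.25), and Fn1, fibronectin, at 2912 and 1905 CPM (-0.61). Of the interferon-stimulated genes Isg15 was at 20.2 and 68.9 CPM (1.38) with a ratio of 0.33 against vehicle cells of female origin and -0.22 with class II of at least 3%, and Ifi27l2a at 338 and 136 CPM (-1.25). Proliferation genes had a median of -0.11, with Mki67 at 39.4 and 39.5 CPM.

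Further genes higher in takinib members, at levels above those of takinib neutrophils, were Gpnmb (11.2 and 144 CPM, 2.86), Vcam1, an adhesion molecule for lymphocytes and monocytes (6.93 and 91.5 CPM, 2.58), Clec4a1, a C-type lectin (7.46 and 92.4 CPM, 2.55), Ms4a4a (67.7 and 265 CPM, 1.82) and Cd93 (17.3 and 81.5 CPM, 1.74). Class II-low cells gave Gpnmb at 74.6 and 1559 CPM and Vcam1 at 15.4 and 129 CPM. Marco, a scavenger receptor, was at 2.40 and 75.6 CPM (2.79), but 1 cell gave 54 of its 90 takinib UMIs, and with class II of at least 3% the ratio was 0.45.

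Among the 12 genes that were lowest in takinib members, Dcstamp and Ccn3 and the linker histone gene Hist1h1d were above the vehicle empty barcodes. Dcstamp, on chr15:39745930-39760938, was at 346 CPM in vehicle and 57.1 CPM in takinib (-2.41 [-2.72, -2.10]). It stayed past 1 in all 16 alternative settings, between -3.12 and -1.75, the latter with vehicle cells of female origin, which held 215 CPM. Class II-low cells held it at 117 and 15.7 CPM. Ccn3, a secreted matrix-associated regulator, had 733 and 3 UMIs, a vehicle to takinib ratio of 77.5 [26.4, 377], and stood at 168% of its vehicle empty-barcode level. The other 9 were Igfbp7, Col1a1, Sparc, Igfbp3, Col3a1, Col1a2, Rgs5, Ctrb1 and Col4a1, all higher in vehicle empty barcodes than in vehicle members. Rgs5 had 208 and 0 UMIs, at least 22.0-fold lower in takinib. With doublets left out its log2 ratio was -1.03 instead of -2.71. The part of free RNA and of doublets in these was not tested.

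Genes lower in takinib and above the vehicle empty barcodes were listed after their values were seen. Dpys, a pyrimidine-degrading enzyme, was at 54.1 and 3.36 CPM (-2.26). Its gene (chr15:39768487-39857470) lies 7548 bases from the end of Dcstamp on the opposite strand. Plet1, a surface protein, was at 227 and 54.6 CPM (-1.88), and Alox15, a lipoxygenase, at 82.3 and 17.6 CPM (-1.74). Replication-type histone genes were counted whether or not they were above the empty barcodes. All 18 Hist1h genes with 50 UMIs were below 0 and 10 at or below -1, against 1.46% of all genes. In takinib members only Hist1h1c, Hist1h1e and Hist1h2bc reached 50 UMIs, with 90, 62 and 101. The others entered through the vehicle library alone, where they were higher, so the count below 0 is a description. Hist1h2ap, at -0.24 [-0.64, 0.15], had an interval that included 0. Hist1h1d was at 161 and 10.1 CPM and Hist1h1c at 262 and 75.6 CPM, while Hist1h2ae, at 53.5 and 16.8 CPM, was at 55.2 CPM in vehicle empty barcodes. The class II-low cells had 9 of these genes at or below -1, against 3.11% there, with Hist1h1d at 146 and 15.2 CPM and Hist1h1c at 293 and 82.1 CPM. Heat shock genes, likewise counted whatever their level in empty barcodes, were below 0 in 11 of 11 cases with a median of -0.30, and 4 passed -1, against 1.46%: Hspa1b at 47.7 and 7.56 CPM, Hsph1, Hspa1a and Dnaja1. Their median in class II-low cells was -0.50.

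The list of fusion and osteoclast-type genes to which Dcstamp belongs had no common direction. Of its 10 genes with 10 UMIs 7 were above 0, with a median of 0.25. Of the 9 with 50 UMIs, 1 was lower in takinib, Dcstamp, and 1 higher, the gelatinase Mmp9, at 5.33 and 104 CPM, with takinib neutrophils at 511 CPM.

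Dcstamp was found in some members and not in others. In vehicle 456 of 945 members (48.3%) held a UMI and in takinib 25 of 208 (12.02%). With every member thinned to 1000 UMIs the shares were 23.6% [20.9, 26.4] and 3.85% [1.67, 7.44], and 7.97% and 0.919% in class II-low cells. Members with a Dcstamp UMI were deeper, at medians of 4494 against 3060 UMIs in vehicle and 8152 against 4992 in takinib.

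The genes described next were picked after their values were seen, as those that differed most between vehicle members with and without a Dcstamp UMI, or were listed for the purpose. Mmp12, the macrophage elastase, was at 1474 CPM in members with and 468 CPM in members without a Dcstamp UMI, and at 3518 and 622 CPM in takinib. Tnf was at 61.8 and 10.4 CPM in vehicle and 260 and 59.0 CPM in takinib. Malt1, a protease of NF-kB signalling, was at 314 and 107 CPM in vehicle and 684 and 143 CPM in takinib, and Il1a at 98.1 and 31.2 CPM and 487 and 142 CPM. Itgax was at 429 and 263 CPM in vehicle and 395 and 155 CPM in takinib. Other genes of the same comparison did not have the same order in both libraries. Ocstamp, a protein of the same fusion machinery, was at 30.6 CPM with and 15.3 CPM without Dcstamp in vehicle, but at 9.64 and 14.2 CPM in takinib, from 2 and 14 UMIs. Ctsk, the osteoclast cathepsin, was the higher with Dcstamp in vehicle, from 14 and 5 UMIs, but was at 14.5 with and 33.6 CPM without it in takinib. Igfbp3 was at 98.1 and 31.2 CPM in vehicle and had 0 and 1 UMI in takinib.

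Lower in members with Dcstamp were Apoe, at 16078 against 23951 CPM in vehicle and 8230 against 18288 CPM in takinib, the complement component C4b (89.6 against 255 CPM, and 48.2 against 143 CPM) and Mrc1 (333 against 489 CPM, and 265 against 647 CPM). Cd74 hardly differed, at 18312 and 17537 CPM in vehicle. Ciita was at 108 and 99.2 CPM there and at 48.2 and 84.4 CPM in takinib, the former from 10 UMIs. The takinib values rest on 25 cells.

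Members also varied along the class II share itself, which the rule used. From the band of 1.5 to 3% to that of 3 to 6%, Ciita went from 64.1 to 131 CPM in vehicle and from 61.0 to 104 CPM in takinib. H2-DMb1 went from 298 to 531 CPM and from 263 to 542 CPM, with close values in both libraries at equal class II share. Its partner H2-DMa was lower in takinib in both bands. It was at 759 CPM in vehicle and 453 CPM in takinib at 1.5 to 3%, and at 1105 and 654 CPM at 3 to 6%. Itgax went from 260 to 418 CPM in vehicle and from 177 to 203 CPM in takinib. Above 6%, where 44 vehicle members lay, Ciita reached 202 CPM and Itgax 618 CPM; the takinib band held 9 cells.

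Arg1, arginase, a gene of alternatively activated macrophages, was lower at higher class II share, going from 1373 to 748 CPM in vehicle and from 1542 to 835 CPM in takinib. Chil3 went from 659 to 337 CPM and from 3237 to 1346 CPM, and Mrc1 from 441 to 378 CPM and from 694 to 361 CPM. Dcstamp went up, from 278 to 401 CPM in vehicle and from 45.7 to 79.3 CPM in takinib, and was lower in takinib in both bands. Transcripts of other cells went down, Col1a1 from 286 to 48.7 CPM in vehicle and S100a8 from 3803 to 2638 CPM in takinib, and their part in the other differences was not tested. Ccl5 in takinib went from 769 to 189 CPM.

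**Figure D5:**
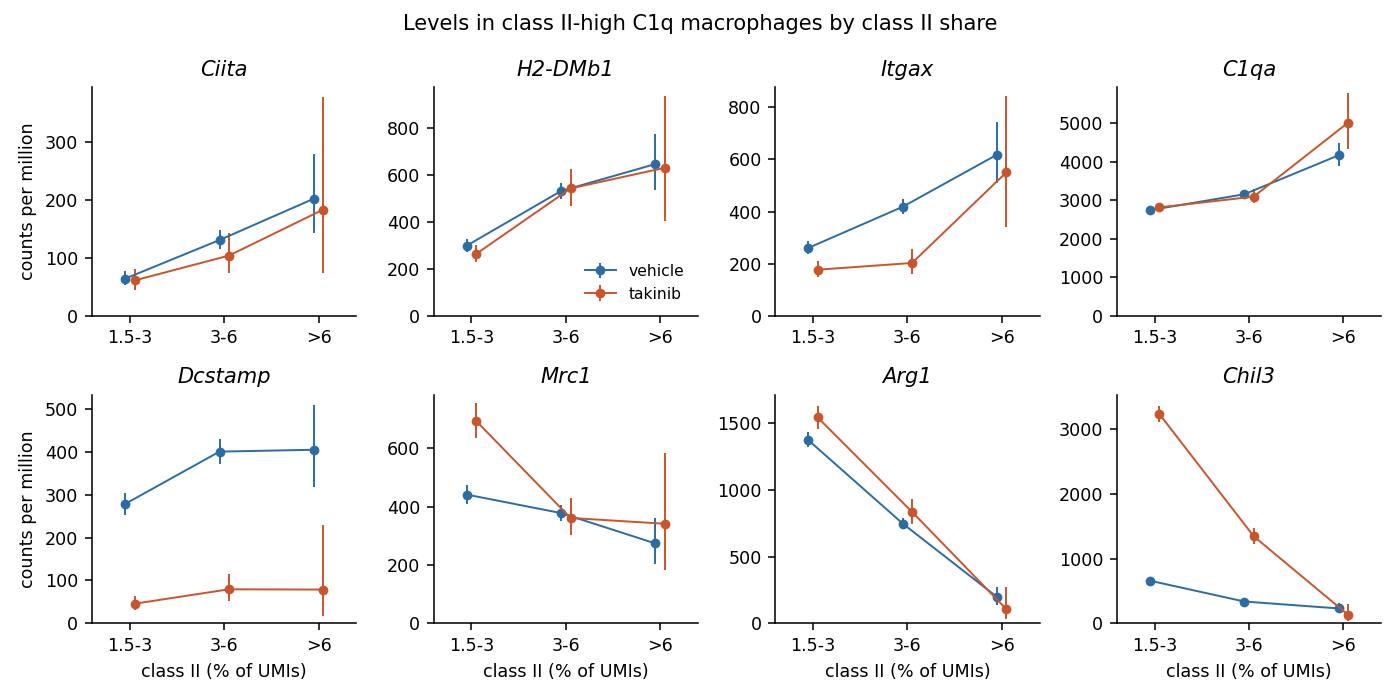
Levels (CPM, axes from 0) of 8 genes in members by class II share (x axis, percent of UMIs), in vehicle and takinib, with exact Poisson intervals. Ciita and H2-DMb1 are higher at higher class II share in both libraries, Arg1 and Chil3 lower, and Dcstamp is lower in takinib in each band; the takinib band above 6% holds 9 cells.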

How the data were processed

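The members and gene lists were chosen with earlier results of these data known. The authors deposited unnormalised UMI counts for every gene in each barcode, produced by Cell Ranger 4 for vehicle and 6.1.1 for takinib, per the file headers. The submitters' processing notes name Cell Ranger 2.1.1, STAR 2.0.4b, Subread, bcl2fastq, featureCounts 1.45 and mm10. Groups came from the labels, 1 library each.

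Barcodes with at least 1000 UMIs, 500 genes and at most 20% mitochondrial UMIs were kept. Counts were summed over members per library and scaled to CPM. For each ratio 10 CPM was added to both levels before taking log2, so changes of low genes are understated. Genes needed 50 UMIs in a library for a call past 1 and 10 for list medians. A fold against 0 used a floor of 3 counts per library. Neutrophils were barcodes with S100a8 and S100a9 at 2% of UMIs or more, a Csf3r UMI and no C1q UMI, and empty barcodes were those with at most 100 UMIs, present in vehicle alone. Cells were given an origin from Xist and Y-linked UMIs. Scrublet's automatic threshold marked 3.18% of vehicle and 0.00373% of takinib cells, so in takinib the 6% with the highest scores were marked. Leaving marked cells out was an alternative.

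Named were the rule's genes and markers, up to 4 genes a list, the 12 highest and 12 lowest ratios, and the 12 genes highest and lowest against class II-low cells. Mitochondrial, ribosomal, haemoglobin, immunoglobulin, Xist and Y-linked genes were left out, as were, among the higher, genes with takinib neutrophils above members. Genes named beyond this illustrate a list or were chosen after their values were seen. Alternatives changed the cell filters, gate limits, doublets, origin of vehicle cells, depth, neutrophil transcripts, pseudocount, gene filter and scaling; removing the limits on Ear2 and Car4 or on Cd79a, Cd3e and Epcam, and setting the S100a8 and S100a9 limit on the share of members, were added after seeing the data. Coordinates are from GENCODE M21 and promoter windows from RefSeq, both GRCm38. The calculations were tested on simulated data. Python 3.11.15, numpy 2.4.6, scipy 1.17.1, pandas 2.3.3, scanpy 1.11.5 and matplotlib 3.10.9 were used.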

Additional observations from a re-analysis of the deposited data

Results flagged for a closer look

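In 4 genes with 50 UMIs in members the takinib to vehicle log2 ratio had opposite signs in members and in class II-low C1q cells of the same libraries, with a size of at least 1 in one population and at least 0.5 in the other. Genes below that size could also differ in sign, as Ccl17 did with -0.33 in members and 0.55 in class II-low cells. The sign of Ccl17 in members was not stable. Over the alternatives it ran from -1.20 with female vehicle cells to 0.79 without the limit on Ear2 and Car4. The difference between the populations was not tested. Spp1, osteopontin, was at 1116 CPM in vehicle and 675 CPM in takinib members, a log2 ratio of -0.72, and at 2002 and 5579 CPM in class II-low cells. Fabp4, a fatty acid carrier, had -0.65 in members, from 22.9 and 10.9 CPM, and 1.72 in class II-low cells. Ctla2a, a cysteine protease inhibitor, had -0.69 in members and 1.46 in class II-low cells. Inhba, the activin A subunit, had 1.55 in members, from 10.9 and 51.2 CPM, and -0.62 in class II-low cells. Vehicle empty barcodes held all 4 genes above vehicle members. They held Spp1 at 2065, Fabp4 at 53.7, Ctla2a at 87.4 and Inhba at 53.7 CPM. The part of free RNA in these differences was not tested.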

How the results depend on the processing

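No paired analysis was possible because each group is 1 library. The takinib to vehicle log2 ratio of the member share of kept cells, -3.62, became -3.004 with 2000 UMIs and 1000 genes, -4.21 with class II of at least 3%, -2.66 with female vehicle cells, -3.99 with cells thinned first, -4.05 without the limit on Ear2 and Car4 and -2.22 with the S100 limit on all kept cells. Over C1q cells, -1.92 became -2.51 with class II of at least 3% and -2.35 without the Ear2 and Car4 limit. The 152 higher genes became 69 with thinned members, 97 with the S100 limit and 72 with a pseudocount of 50. The 99 lower genes became 32 with female vehicle cells, and 216 and 32 with pseudocounts of 1 and 50. Against class II-low cells, the 25 higher genes became 48 and 10 with pseudocounts of 1 and 50. The 42 lower genes became 254 and 12 with these pseudocounts, 83 with class II of at least 3% and 113 without limits on Cd79a, Cd3e and Epcam.

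In 468 of 513 alternatives the list median lay between the medians of its genes' lower and upper counting bounds. That range is not an interval of the median itself. The class II chains, -0.24, became -0.34 with class II of at least 1%, 0.008 with at least 3%, -0.15 with female vehicle cells, -0.28 when centred, -0.19 without lineage limits, and -0.17 with thinning, the neutrophil profile subtracted, the S100 limit or no Ear2 and Car4 limit. With class II of at least 1%, complement became -0.12, fusion genes -0.027 and fibroblast genes -2.17. With at least 3%, fusion genes became -0.051, chemokines 0.23, interferon genes -0.12 and proliferation genes 0.57. With female vehicle cells, complement became 0.34, cathepsins 0.12, chemokines 1.71, immediate-early genes -0.026, glycolysis genes 0.81, dendritic genes 1.06 and fibroblast genes -2.53. With male vehicle cells, chemokines became 1.65, dendritic genes 0.85 and fibroblast genes -2.71. Fibroblast genes became -1.71 without doublets. Thinning gave iron genes 0.20 and neutrophil genes 5.05. Neutrophil genes became 1.58 with the profile subtracted, 1.28 with the S100 limit and 2.81 without lineage limits, which gave B genes 0.38 and epithelial genes -1.26. A pseudocount of 1 gave neutrophil genes 3.95, fibroblast genes -3.40 and endothelial genes -2.40. A pseudocount of 50 gave cytokines 0.59, chemokines 0.81, neutrophil genes 1.28, fibroblast genes -0.48, endothelial genes -0.18 and alveolar genes 0.54. Alveolar genes became 0.041 without a gene filter, and complement -0.10 without the Ear2 and Car4 limit.

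Of 1040 values of 65 named genes whose main ratio was past 1 in size, 10 changed sign. Of 416 values of the other 26 named genes, 28 changed sign, in 13 genes. Among the 10, those with class II of at least 3% were Ccl8 -0.35, Ccl7 -0.025, Mmp13 -0.85, Dcn 0.46 and Isg15 -0.22. The others were Mgl2 0.63 with female vehicle cells, Mmp13 -0.18 and Dcn 0.13 when thinned, Camp -0.047 when the profile was subtracted and Mmp13 -0.72 with the S100 limit. The causes were not tested. Takinib members were 208, so genes of few UMIs are the least precise there.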
